A study of Bos taurus with 9 samples.

Results

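A total of 591 lncRNAs are described here, of 2257 in the deposited table (26.2%). They are the transcripts that the study assembled from its own reads in bovine mammary epithelial cells (bMECs), that carried an intergenic name (LINC with a running number) and that were chosen by their mean level, at most 10 FPKM over the 9 libraries. FPKM are fragments scaled to transcript length and to the mapped fragments of the library, so levels of different transcripts can be compared per length. Of 611 assembled intergenic lncRNAs, 13 lay above the limit, 5 lay on unplaced scaffolds, and LINC177 and LINC178 were left out by the rule. That they were low is therefore not a finding. The limit itself did not use differences between time points, but entry into the study's list could depend on the time point at which a transcript was high, as given below. The LINC numbers are those of the table and do not stand for human genes with such names.

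The cells were MAC-T, an immortalized line of bovine mammary epithelium, and the study exposed them to lipopolysaccharide (LPS) to follow the inflammatory response over time. The 3 groups were untreated cells (0 h), cells 6 h after addition of 50 ng/μL LPS (6 hpi) and cells 12 h after it (12 hpi), with 3 libraries each. The study's methods describe 3 plates of 6 wells, with 1 plate collected at each time point. The plate therefore cannot be told apart from the duration of LPS. Untreated cells were collected at 0 h only, so time in culture cannot be told apart from LPS either. Words such as after LPS below give the time since its addition, not a cause. No other plate is described, but the sources used here do not state that the replicates were wells of 1 plate. Should they be, SDs and p-values measure only differences between wells. The table holds lncRNAs only, so the epithelial identity could not be checked against its markers.

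LPS is a component of the outer membrane of Gram-negative bacteria such as Escherichia coli, a common cause of mastitis, and epithelial cells sense it through Toll-like receptor 4, which activates NF-kB and MAPK signalling. Intergenic lncRNAs are transcribed and spliced like messenger RNAs but code for no known protein and overlap no protein-coding gene. In mammals they are as a class less abundant and more specific to cell type than messenger RNAs, some act in the nucleus on genes nearby, and for most no function is known. None of the transcripts below has a role that the sources used here give, so they are described by place, level and change.

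Sequences at hand were the primer pairs that the study designed for 3 of these transcripts. They are shown because each of the 3 transcripts reached the thresholds in 1 or more comparisons and because 2 of them lie at loci where several transcripts share one span. All are written 5′ to 3′.
LINC819 forward: tcttcagacttgctgctcg
LINC819 reverse: acctaagtgcgggtgaaa
LINC145 forward: ggcaggcagattctttac
LINC145 reverse: gttgataagcctacaggagac
LINC1054 forward: gcctctgtagcaggatttg
LINC1054 reverse: ttcctcctgcgtgtatcc
In the coordinates of the table, which are those of the assembly ARS-UCD1.2, LINC819 spans chr20:21284208-21383060, LINC145 chr10:30453290-30457261 and LINC1054 chr26:37718497-37775549. LINC145 shares its whole span with LINC144, LINC819 is 1 of 10 listed transcripts of its locus, and LINC1054 is the only listed transcript of its locus. The primers were not placed on the genome here, so which of the transcripts of a locus each pair amplifies was not tested. The study used each pair in quantitative RT-PCR for 1 comparison. For its 10 assayed lncRNAs together it reports patterns similar to those of sequencing. Its text gives no values for these assays, so they were not set beside the FPKM here.

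The transcripts came from 478 loci on all 29 autosomes and the X chromosome, and chromosome 5 held most (49), followed by chromosome 1 (41) and chromosome 19 (38). Their genomic span, introns included, had a median of 6.29 kb and ran up to 304.7 kb, with 22 above 100 kb. Of the loci, 397 had a single listed transcript, and 81 had more, which held the other 194 transcripts. The mean level had a median of 0.601 FPKM, with 143 transcripts above 1 FPKM and 10 above 5 FPKM. In all 9 libraries, 417 were above 0, 131 above 0.5 FPKM and 55 above 1 FPKM. The authors kept lncRNAs above 0.5 FPKM, and every one of the 591 averaged 0.5 FPKM or more at some time point, so a transcript could enter through the time point at which it was high.

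Just inside the limit, LINC272 on chromosome 12 had 9.82, 10.1 and 7.58 FPKM at 0 h, 7.96, 8.73 and 9.36 FPKM at 6 hpi, and 8.92, 6.74 and 7.75 FPKM at 12 hpi. The next by mean level were LINC991 (7.54 FPKM), LINC673 (6.41), LINC668 (6.27), LINC473 (5.87), LINC610 (5.71), LINC1041 (5.67) and LINC624 (5.37). Just outside it, LINC1190 had a mean of 10.3 FPKM, LINC767 11.01 FPKM and LINC667 11.5 FPKM. LINC667 belongs to the same locus as LINC673 and LINC668, and LINC767 to that of LINC768 and LINC769, so the limit divided loci. LINC272 did not pass the thresholds given below in any comparison, with log2 fold changes of −0.07 for 6 hpi against 0 h and −0.23 for 12 hpi against 0 h.

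Before single transcripts, the libraries were compared. The FPKM of the 591 transcripts summed to 480.0, 482.3 and 532.1 at 0 h, 597.9, 575.2 and 588.1 at 6 hpi, and 587.5, 602.3 and 603.8 at 12 hpi. All 6 libraries of LPS-treated cells thus lay above all 3 of untreated cells. The mean sum was 1.18 times as high at 6 hpi as at 0 h and 1.2 times as high at 12 hpi, while for the other lncRNAs up to 10 FPKM these ratios were 1.01 and 1.05. Whether entry through the time point of a high level has a part in these sums was not tested. The number listed at 0 was 63, 63 and 30 at 0 h, 44, 49 and 44 at 6 hpi, and 40, 39 and 34 at 12 hpi. Libraries 1 and 2 of 0 h thus stood apart from library 3. In the study's sequencing summary these 2 libraries had the lowest mapped ratios and the lowest shares of high-quality bases of the series. All 3 libraries of 0 h had more mapped reads there than any LPS library. Whether these differences in quality and depth have a part in the changes against 0 h was not tested. Over the 502 tested transcripts, which are not independent replicates, the median Pearson correlation of log2(FPKM + 0.1) with the 6 LPS libraries was 0.44 for 0 h replicate 1, 0.42 for replicate 2 and 0.57 for replicate 3. The part that this difference between 0 h libraries has in the results was not tested, and the changes against 0 h of the leading transcripts are therefore also given with replicates 1 and 2 left out together. That fit has a single 0 h library, which is assumed to vary like the other groups.

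**Figure D1:**
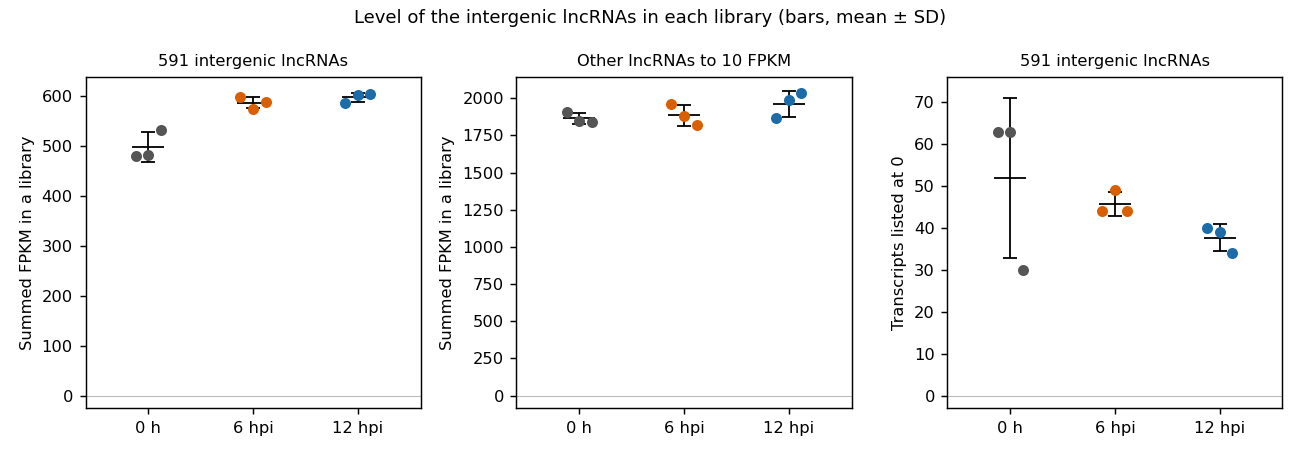
Summed FPKM of the 591 intergenic lncRNAs, summed FPKM of the other lncRNAs up to 10 FPKM, and number of intergenic lncRNAs listed at 0, each by time point on the x axis. Points are libraries in the order of replicate number, and bars give the mean ± SD of 3 libraries. The sums of the intergenic lncRNAs lay at 480.0 to 532.1 at 0 h and at 575.2 to 603.8 after LPS, and 0 h replicate 3 had 30 transcripts at 0 against 63 in each of the other 0 h libraries.

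Differences were tested with limma on log2(FPKM + 0.1), fitted over the 1948 lncRNAs of the table with FPKM above 0.5 in at least 3 libraries, 502 of them among the 591. The other 89 were not tested. A lncRNA was taken as higher or lower at the thresholds of the study, which are an unadjusted p under 0.05 and a log2 fold change beyond 1 in either direction, and the Benjamini-Hochberg adjusted p is given beside it. No member of the set reached an adjusted p under 0.05 in any of the 3 comparisons with limma. At an unadjusted p under 0.05 alone 55 of the 502 passed for 6 hpi against 0 h (11%, all tested lncRNAs 9.8%), 81 for 12 hpi against 0 h (16.1%, all tested lncRNAs 14.2%) and 42 for 12 hpi against 6 hpi (8.37%, all tested lncRNAs 8.06%). The smallest adjusted p were 0.323, 0.111 and 0.332. In total, 100 transcripts reached the thresholds in at least 1 comparison, a total given for the intergenic lncRNAs only. Fold changes are on the scale of log2(FPKM + 0.1), which understates the change of low transcripts.

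For 6 hpi against 0 h, 34 of the 502 tested transcripts (6.77%) reached the thresholds, where 6.06% of all tested lncRNAs did. Of these, 26 were higher (5.18%, all tested lncRNAs 3.75%) and 8 were lower (1.59%, all tested lncRNAs 2.31%). The 2 groups of 3 libraries did not overlap for 103 transcripts (20.5%, all tested lncRNAs 16.6%). The median log2 fold change of the tested transcripts was 0.17, and that of all tested lncRNAs was 0.05. Leaving out 1 library of 0 h moved the count to 20 without replicate 1, 22 without replicate 2 and 51 without replicate 3, and to 12 when replicates 1 and 2 were both left out, of which 4 were among the 34. Of the 34, 9 were at the thresholds with any single library left out, 7 higher and 2 lower. Counts at the thresholds with libraries left out are given for the intergenic lncRNAs only, here and in the other comparisons.

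**Figure D2:**
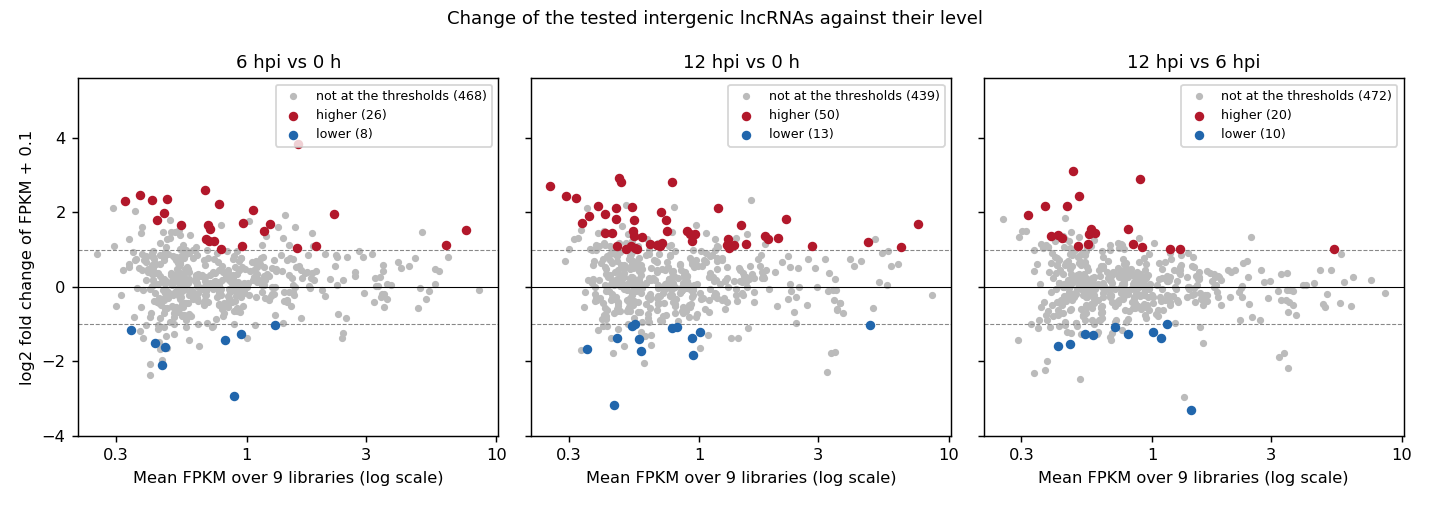
Log2 fold change of FPKM + 0.1 against the mean FPKM over 9 libraries (log scale) for the 502 tested intergenic lncRNAs, in 3 comparisons. Coloured points are transcripts at the thresholds of the study, red higher and blue lower in the group named first, with their number in the legend, and dashed lines mark a log2 fold change of 1 in either direction. Transcripts at the thresholds lay mostly below 1 FPKM, and the comparison of 12 hpi with 0 h had the most, 50 higher and 13 lower.

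LINC991 (chr25:2311841-2313665) had the smallest p among the transcripts that rose by 6 hpi. It had 1.75, 2.89 and 5.55 FPKM at 0 h, 6.51, 10.2 and 10.7 FPKM at 6 hpi, and 9.65, 10.04 and 10.54 FPKM at 12 hpi. All 6 LPS libraries lay above the 3 of 0 h, and 0 h replicate 3 was the closest to them. The log2 fold change was 1.52 ± 0.38 (SE) for 6 hpi against 0 h, with an adjusted p of 0.323, and 1.69 ± 0.38 for 12 hpi against 0 h, with an adjusted p of 0.174. Without 0 h replicate 3 these became 1.94 (adjusted p = 0.0358) and 2.11 (adjusted p = 0.0131), and without 0 h replicates 1 and 2 they became 0.68 and 0.85, below the threshold. LINC991 shares its locus with 3 other listed transcripts, and the summed FPKM of the locus was 24.96, 23.2 and 32.1 at 0 h, 29.7, 29.5 and 38.7 at 6 hpi, and 34.4, 37.6 and 33.9 at 12 hpi. The sum thus changed less, with a log2 fold change of 0.29 for 6 hpi and 0.41 for 12 hpi against 0 h, and was not at the thresholds.

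Among transcripts alone at their locus, LINC218 (chr11:1692381-1693394) had 0.225, 0.394 and 0.421 FPKM at 0 h, 1.07, 0.663 and 1.28 FPKM at 6 hpi, and 0.647, 0.903 and 0.603 FPKM at 12 hpi. The groups of 6 hpi and 0 h did not overlap, and the log2 fold change was 1.296 ± 0.35 (SE, adjusted p = 0.337), or 1.04 without a call (unadjusted p = 0.0758) when 0 h replicates 1 and 2 were left out. LINC1343 (chr5:79802882-79807598) had 0, 0.0830 and 0.279 FPKM at 0 h, 0.440, 1.06 and 0.565 FPKM at 6 hpi, and 0.490, 0.607 and 0.652 FPKM at 12 hpi. It rose by 1.97 ± 0.57 at 6 hpi and by 1.83 ± 0.57 at 12 hpi against 0 h, where 1 library was listed at 0, and without 0 h replicates 1 and 2 these were 0.98 and 0.84, both without a call. LINC1130 (chr29:47387725-47391328) had 0.199, 0 and 0 FPKM at 0 h, 1.10, 0.332 and 0.654 FPKM at 6 hpi, and 0.239, 0.533 and 0.705 FPKM at 12 hpi. Its log2 fold change was 2.34 ± 0.68 for 6 hpi against 0 h, and 1.95 ± 0.68 for 12 hpi against 0 h, a call that was lost without 12 hpi replicate 2 (unadjusted p = 0.0502) or 3 (unadjusted p = 0.0652). Without 0 h replicates 1 and 2 both changes of LINC1130 were at the thresholds, at 2.87 and 2.48.

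A second group rose by 6 hpi with less margin. LINC1152 (chr3:20936102-20943273) had 0.883, 0.838 and 1.17 FPKM at 0 h, 1.46, 2.68 and 2.504 FPKM at 6 hpi, and 2.45, 1.99 and 3.06 FPKM at 12 hpi. Its change was 1.09 ± 0.30 on the log2 scale for 6 hpi against 0 h, and it fell below 1 without 6 hpi replicate 2 (0.94) or 3 (0.98), while that for 12 hpi against 0 h, 1.28 ± 0.30 (adjusted p = 0.188), was at the thresholds with any single library left out. Without 0 h replicates 1 and 2 these were 0.82 and 1.01 (unadjusted p = 0.0561), without a call. LINC214 (chr11:105188230-105192557) had 1.04, 0.755 and 1.31 FPKM at 0 h, 2.03, 1.98 and 2.61 FPKM at 6 hpi, and 1.29, 1.78 and 1.58 FPKM at 12 hpi. Its 1.04 ± 0.27 at 6 hpi fell to 0.85 without 0 h replicate 2 and to 0.92 without 6 hpi replicate 3, and at 12 hpi it was 0.56. LINC923 on chromosome 23 was higher by 1.24 ± 0.35 at 6 hpi than at 0 h, or by 0.94 without 0 h replicate 2. With 0 h replicates 1 and 2 both left out LINC214 was at 0.70 and LINC923 at 0.92, without a call.

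Of the 8 transcripts that fell by 6 hpi, LINC74 and LINC1289 were at the thresholds with any single library left out. LINC74 (chr1:89611492-89799594) had 1.44, 1.81 and 0.855 FPKM at 0 h, 0.355, 0.464 and 0.476 FPKM at 6 hpi, and 0.416, 0.703 and 0.879 FPKM at 12 hpi. The 6 hpi libraries lay below all others but 12 hpi replicate 1, and the log2 fold change against 0 h was −1.41 ± 0.37 (SE, adjusted p = 0.337). It was −0.85 when 0 h replicates 1 and 2 were left out together. At 12 hpi it was −0.93 against 0 h, short of the threshold.

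LINC1289 (chr5:54950079-54952124) had 1.76, 2.01 and 1.44 FPKM at 0 h, 0.577, 0.735 and 0.662 FPKM at 6 hpi, and 0.226, 0.540 and 0.555 FPKM at 12 hpi. The 3 groups did not overlap and lay in the order of time, 0 h highest. Its log2 fold change was −1.27 ± 0.34 for 6 hpi against 0 h (adjusted p = 0.337) and −1.82 ± 0.34 for 12 hpi against 0 h (adjusted p = 0.111), the smallest adjusted p of the set, which LINC1292 shared. With any single library left out the change at 12 hpi stayed between −2.00 and −1.49. Without 0 h replicates 1 and 2 the change was −1.03 at 6 hpi, no longer a call (unadjusted p = 0.105), and −1.59 at 12 hpi, still at the thresholds. When 1 was added to the FPKM and not 0.1, the change at 12 hpi was −0.93, and its adjusted p was 0.0492.

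For 12 hpi against 0 h, 63 of the 502 tested transcripts (12.5%) reached the thresholds, where 9.60% of all tested lncRNAs did. Of these, 50 were higher (9.96%, all tested lncRNAs 6.37%) and 13 were lower (2.59%, all tested lncRNAs 3.23%). Among the other lncRNAs up to 10 FPKM, the share that was higher was 4% of antisense, 5.22% of sense overlapping and 5.99% of annotated lncRNAs, and the difference between these types and the intergenic lncRNAs was not tested. The groups did not overlap for 123 transcripts (24.5%, all tested lncRNAs 22.6%). All tested lncRNAs had a median log2 fold change of 0.11 in this comparison, and the intergenic lncRNAs had 0.17. For the intergenic lncRNAs this median was 0.04 with each library centred on its median and 0.02 after quantile normalization. When each library was centred on its median, 32 of 50 transcripts at the thresholds were higher (64.0%) instead of 50 of 63 (79.4%), and after quantile normalization 33 of 50 were.

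The count was 48 without 0 h replicate 1, 43 without 0 h replicate 2 and 92 without 0 h replicate 3, and 28 when replicates 1 and 2 were both left out, of which 16 were among the 63. Without 0 h replicate 3, 8 transcripts (1.59%, all tested lncRNAs 1.59%) reached an adjusted p under 0.05, and for 6 hpi against 0 h 3 did (0.598%, all tested lncRNAs 0.565%), shares close to those of the table. LINC904 on chromosome 22, chosen here after its values were seen, is an example of how that library differed. It had 0.256, 0.354 and 2.74 FPKM at 0 h, 2.56, 3.14 and 3.02 FPKM at 6 hpi, and 2.46, 2.13 and 3.41 FPKM at 12 hpi. The 0 h replicate 3 lay within the range of the LPS libraries and the other 0 h libraries far below it. The log2 fold change of LINC904 for 12 hpi against 0 h was 1.82 ± 0.67, and without 0 h replicate 3 it was 2.76 with an adjusted p of 0.00653. The call of LINC904 was lost without 0 h replicate 1 (unadjusted p = 0.0928), 0 h replicate 2 (0.0863) or 12 hpi replicate 3 (0.0718), and the change was −0.06 without both 0 h replicates 1 and 2. Of the 63 transcripts, 17 were at the thresholds with any single library left out, 12 higher and 5 lower.

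**Figure D3:**
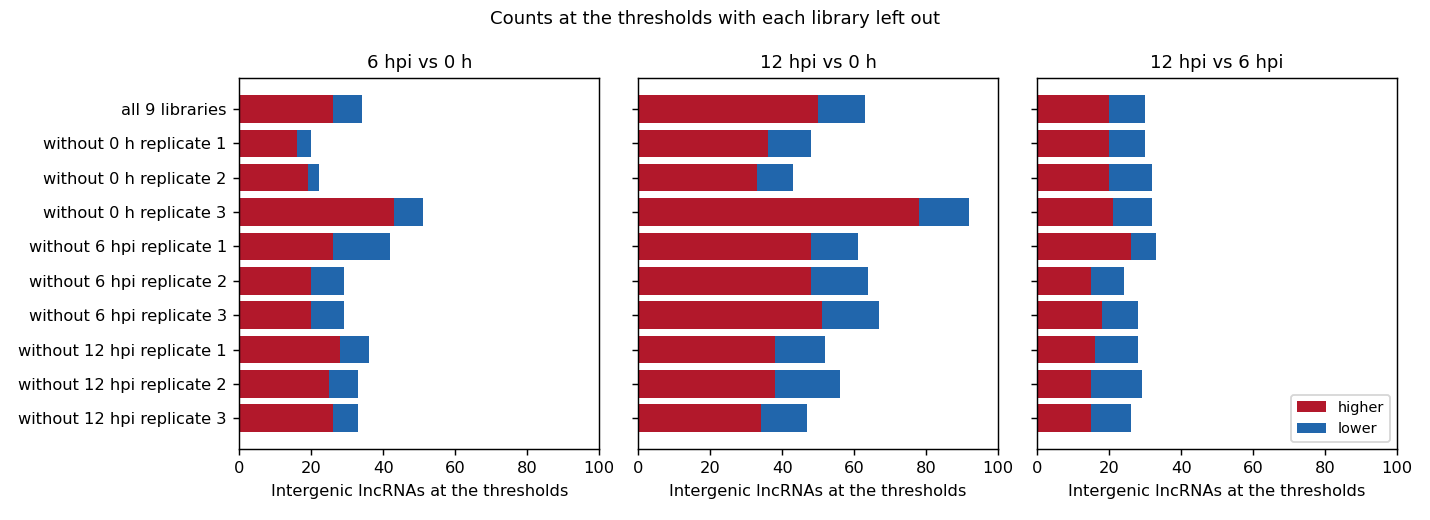
Number of intergenic lncRNAs at the thresholds (x axis) in 3 comparisons with all 9 libraries and with each library left out (rows), red for higher and blue for lower in the group named first. The counts against 0 h were highest without 0 h replicate 3, 51 for 6 hpi and 92 for 12 hpi, and that of 12 hpi against 6 hpi lay between 24 and 33.

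LINC1532 (chr9:102139564-102144649) was higher at both LPS times. It had 0.00377, 0.00721 and 0.561 FPKM at 0 h, 0.977, 0.627 and 0.839 FPKM at 6 hpi, and 1.46, 0.867 and 1.63 FPKM at 12 hpi. At 0 h, replicates 1 and 2 were near 0 and replicate 3 was close to the lowest LPS library. The log2 fold change was 2.82 ± 0.68 (SE, adjusted p = 0.188) for 12 hpi against 0 h and 2.21 ± 0.68 for 6 hpi against 0 h, and with 0 h replicates 1 and 2 left out these were 1.06 and 0.45, without a call. It shares a locus with LINC1531 and LINC1533, and the sum of the 3 changed by 0.32 at 12 hpi and by 0.35 at 6 hpi, not at the thresholds.

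Transcripts alone at their locus rose at 12 hpi as well. LINC362 (chr13:68392041-68397928) had 0, 0.129 and 0.245 FPKM at 0 h, 0.242, 0.325 and 0.197 FPKM at 6 hpi, and 0.809, 0.844 and 0.756 FPKM at 12 hpi. The 12 hpi libraries were close together and above every other library, and the log2 fold change against 0 h was 2.18 ± 0.56 (SE, adjusted p = 0.188), or 1.39, still at the thresholds, without 0 h replicates 1 and 2. LINC290 (chr13:2234792-2236865) had 0.201, 0.158 and 0.227 FPKM at 0 h, 0.562, 0.268 and 0.398 FPKM at 6 hpi, and 0.419, 1.60 and 1.09 FPKM at 12 hpi. Its 0 h libraries lay below all others, and it rose by 1.79 ± 0.49 against 0 h, while the change was 1.64 without a call (unadjusted p = 0.0648) when 0 h replicates 1 and 2 were left out. LINC29 (chr1:97732322-97756957) had 0.471, 0.460 and 0.534 FPKM at 0 h, 0.906, 0.556 and 0.547 FPKM at 6 hpi, and 0.970, 2.43 and 1.37 FPKM at 12 hpi. It rose by 1.43 ± 0.37 at 12 hpi against 0 h, with 1.32 and no call (unadjusted p = 0.0551) without those libraries. Against 6 hpi its change was 1.08 ± 0.37, which fell below 1 without 6 hpi replicate 2 (0.98), 6 hpi replicate 3 (0.96) or 12 hpi replicate 2 (0.74).

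The calls of LINC1396 and LINC126 at 12 hpi depended on 1 library. LINC1396 on chromosome 6 was higher by 1.12 ± 0.28 against 0 h and by 0.95 without 12 hpi replicate 2. LINC126 on chromosome 10 was higher by 1.16 ± 0.29 and by 0.95 without 0 h replicate 2. For both, the 3 libraries of 12 hpi lay above the 3 of 0 h, and the change was at the thresholds without 0 h replicates 1 and 2, at 1.29 for LINC1396 and 1.17 for LINC126.

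**Figure D4:**
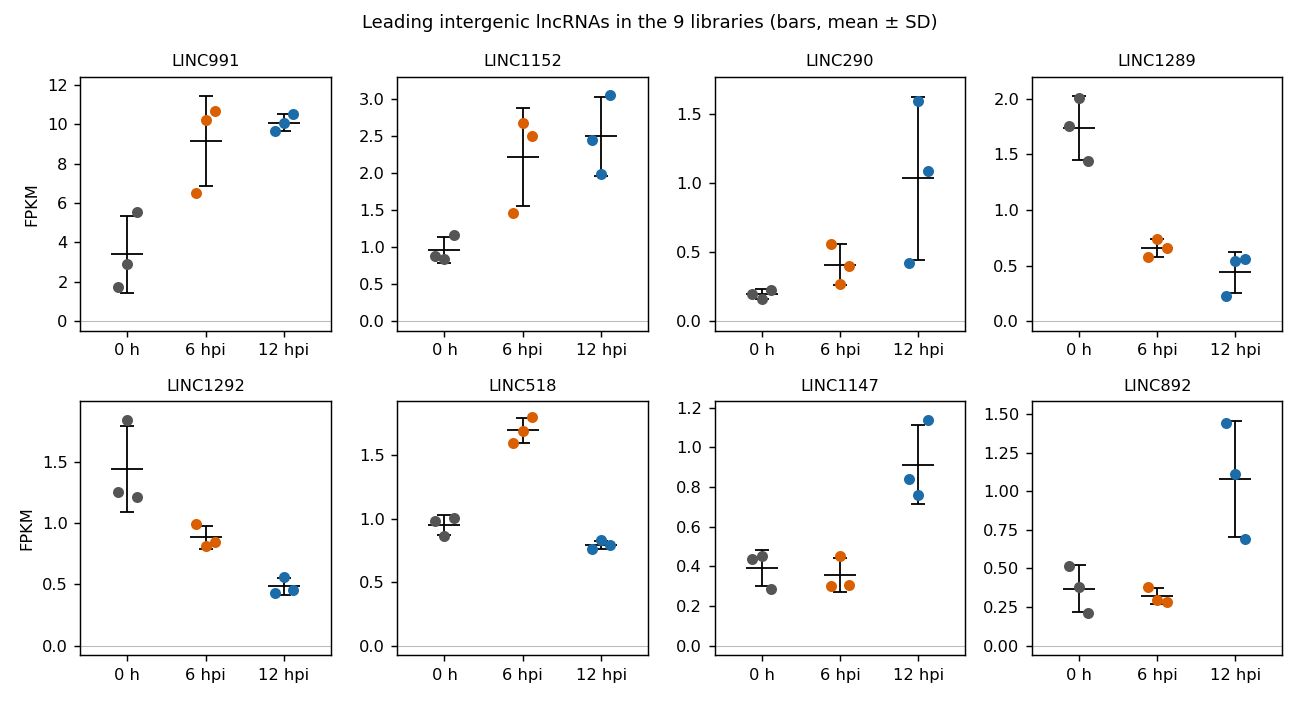
FPKM of 8 intergenic lncRNAs in the 9 libraries by time point. Points are libraries in the order of replicate number, and bars give the mean ± SD of 3 libraries. LINC991, LINC1152 and LINC290 were higher and LINC1289 and LINC1292 lower after LPS, LINC518 was highest at 6 hpi, and LINC1147 and LINC892 were highest at 12 hpi.

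Of the 13 transcripts that fell by 12 hpi, 5 were at the thresholds with any single library left out. These were LINC1289, described above, LINC1292, LINC11, LINC1115 and LINC145. LINC1292 (chr5:60175821-60182942) had 1.26, 1.84 and 1.21 FPKM at 0 h, 0.991, 0.813 and 0.848 FPKM at 6 hpi, and 0.431, 0.563 and 0.454 FPKM at 12 hpi. As for LINC1289, the 3 groups did not overlap and were in the order of time, and the log2 fold change for 12 hpi against 0 h was −1.38 ± 0.27 (SE, adjusted p = 0.111). It shares a locus with LINC1293, and the sum of both fell by 1.36 on the log2 scale, at the thresholds. The sum was 1.93, 2.28 and 2.43 FPKM at 0 h and 0.431, 1.19 and 0.955 FPKM at 12 hpi. LINC1292 is itself a large part of this sum, so the sum is no separate check of the transcript. Without 0 h replicates 1 and 2 the change of LINC1292 was −1.18, still at the thresholds.

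LINC11 on chromosome 1 fell by 1.72 ± 0.51 on the log2 scale (SE, adjusted p = 0.213), to between 0.0333 and 0.349 FPKM at 12 hpi, against 0.644 to 1.23 FPKM at 0 h, but the sum of its locus changed by −0.80 and was not at the thresholds. Without 0 h replicates 1 and 2 the change of LINC11 was −1.35, without a call (unadjusted p = 0.149). LINC1115 (chr28:25552583-25555350) had 0.408, 0.604 and 0.715 FPKM at 0 h, 0.857, 0.710 and 0.435 FPKM at 6 hpi, and 0.125, 0.277 and 0.1 FPKM at 12 hpi. Its 0 h and 6 hpi libraries overlapped and the 3 libraries of 12 hpi lay below them, with log2 fold changes of −1.37 ± 0.43 against 0 h and −1.54 ± 0.43 against 6 hpi, and the change of LINC1115 against 0 h was −1.66, still at the thresholds, without 0 h replicates 1 and 2. The most abundant transcript that fell by 12 hpi was LINC1250 (chr4:94657493-94668748), which had 8.02, 6.37 and 5.72 FPKM at 0 h, 5.52, 3.82 and 4.11 FPKM at 6 hpi, and 2.39, 4.52 and 3.08 FPKM at 12 hpi. Its change at 12 hpi was −1.02 ± 0.28 against 0 h, and it was short of the threshold without 0 h replicate 1 (−0.89), 12 hpi replicate 1 (−0.82) or 12 hpi replicate 3 (−0.99), and without both 0 h replicates 1 and 2 (−0.81).

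For 12 hpi against 6 hpi, in which the 0 h libraries enter through the estimate of the spread only, 30 of the 502 tested transcripts (5.98%) reached the thresholds, where 5.39% of all tested lncRNAs did. Of these, 20 were higher (3.98%, all tested lncRNAs 3.49%) and 10 were lower (1.99%, all tested lncRNAs 1.90%), shares close to those of the table. The groups did not overlap for 89 transcripts (17.7%, all tested lncRNAs 15.1%). With centring on the library median the split was 14 higher and 13 lower, and after quantile normalization 13 higher and 15 lower, so an excess of higher transcripts in this comparison depended on the scaling. The count lay between 24 and 33 with any single library left out, and 9 transcripts, 5 higher and 4 lower, were at the thresholds in all of these fits. Leaving out 0 h libraries moved the count to at most 32, and 3 calls were lost without a single 0 h library, those of LINC436, LINC527 and LINC808, of which LINC436 and LINC527 are named here after their values were seen.

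LINC1054, one of the transcripts with primers, had 0.440, 0 and 0.00295 FPKM at 0 h, 0.0121, 0 and 0.168 FPKM at 6 hpi, and 0.617, 1.42 and 1.71 FPKM at 12 hpi. It rose late, by 3.12 ± 0.88 on the log2 scale against 6 hpi (SE, adjusted p = 0.462), and the change against 0 h was 2.82 ± 0.88, which lost its call without 12 hpi replicate 3 (unadjusted p = 0.0504) and was 3.61, at the thresholds, without 0 h replicates 1 and 2. LINC892 (chr22:29463638-29577986) had 0.514, 0.380 and 0.209 FPKM at 0 h, 0.382, 0.295 and 0.285 FPKM at 6 hpi, and 1.44, 1.11 and 0.692 FPKM at 12 hpi. It rose by 1.45 ± 0.40 against 6 hpi and by 1.34 ± 0.40 against 0 h, or 1.89 without 0 h replicates 1 and 2. LINC1147 (chr3:15944990-15965970) had 0.435, 0.451 and 0.284 FPKM at 0 h, 0.302, 0.453 and 0.307 FPKM at 6 hpi, and 0.838, 0.759 and 1.14 FPKM at 12 hpi. It rose by 1.16 ± 0.34 against 6 hpi, and against 0 h by 1.05 ± 0.34, which was 0.88 without 0 h replicate 3, 0.89 without 12 hpi replicate 3 and 1.38 without 0 h replicates 1 and 2. In LINC892 and LINC1147 the libraries of 0 h and 6 hpi overlapped, and those of 12 hpi lay above all of them.

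LINC624 on chromosome 19 (chr19:14898597-14903930) was the most abundant of the transcripts that were higher at 12 hpi than at 6 hpi. It had 3.89, 3.75 and 4.96 FPKM at 0 h, 4.47, 3.49 and 3.68 FPKM at 6 hpi, and 9.42, 6.61 and 8.10 FPKM at 12 hpi. The log2 fold change for 12 hpi against 6 hpi was 1.03 ± 0.22 (SE, adjusted p = 0.332), and its size was just under 1 without 6 hpi replicate 2 (0.96), 6 hpi replicate 3 (0.99) or 12 hpi replicate 1 (0.91). LINC903 (chr22:53326062-53328321) had 0.717, 0.562 and 0.590 FPKM at 0 h, 0.138, 0.607 and 0.551 FPKM at 6 hpi, and 0.980, 1.72 and 1.34 FPKM at 12 hpi. It rose by 1.56 ± 0.44 against 6 hpi, and its log2 fold change against 0 h was 0.97, not at the thresholds.

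Some transcripts differed at 6 hpi from both other time points. LINC518 (chr16:51177774-51179726) had 0.985, 0.860 and 1.01 FPKM at 0 h, 1.60, 1.69 and 1.80 FPKM at 6 hpi, and 0.762, 0.828 and 0.788 FPKM at 12 hpi. The spread within each group was small, and the groups did not overlap, with 6 hpi highest and 12 hpi lowest. Its log2 fold change for 12 hpi against 6 hpi was −1.01 ± 0.23 (SE, adjusted p = 0.332), or −0.97 without 6 hpi replicate 3 and −0.98 without 12 hpi replicate 1, and that for 6 hpi against 0 h was 0.77 ± 0.23. LINC1412 (chr7:18651653-18654109) had the same order of groups, with 0.875, 0.691 and 0.733 FPKM at 0 h, 1.29, 1.32 and 0.943 FPKM at 6 hpi, and 0.447, 0.270 and 0.621 FPKM at 12 hpi. It fell by 1.27 ± 0.32 on the log2 scale at 12 hpi against 6 hpi, and this call held with any single library left out.

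The reverse was seen in LINC557 (chr18:5192490-5195581), which had 1.99, 1.35 and 1.42 FPKM at 0 h, 0.768, 1.01 and 0.469 FPKM at 6 hpi, and 1.62, 1.32 and 1.76 FPKM at 12 hpi. Its log2 fold change was −1.02 ± 0.31 for 6 hpi against 0 h and 1.02 ± 0.31 for 12 hpi against 6 hpi, and 0 h and 12 hpi overlapped. The fall was short of the threshold without 0 h replicate 1 (−0.86), 6 hpi replicate 3 (−0.76) or both 0 h replicates 1 and 2 (−0.90), and the rise without 6 hpi replicate 3 (0.75), 12 hpi replicate 1 (0.99) or 12 hpi replicate 3 (0.93). LINC1313 on chromosome 5 had 0.434, 0.961 and 0.450 FPKM at 0 h, 0.287, 0 and 0 FPKM at 6 hpi, and 0.304, 0.781 and 0.893 FPKM at 12 hpi. It rose by 2.17 ± 0.68 at 12 hpi against 6 hpi, where 2 libraries were listed at 0, and its change of −2.11 ± 0.68 at 6 hpi against 0 h was lost without 0 h replicate 2 (unadjusted p = 0.0588) and with 0 h replicates 1 and 2 both left out (unadjusted p = 0.151). Of the other transcripts that were lower at 12 hpi than at 6 hpi, LINC54 on chromosome 1 and LINC1614 on the X chromosome were at the thresholds with any single library left out, by −1.38 ± 0.39 and −1.27 ± 0.38.

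A property that the rule did not use was whether a locus held several listed transcripts. Tested transcripts at such loci had a median SD between replicates of 0.89 on the log2 scale, and those alone at their locus had 0.51, although the median level was 0.873 FPKM at shared loci and 0.630 FPKM alone. The spread of the summed FPKM of a shared locus was smaller than the median spread of its transcripts in 74 of 81 loci, with medians of 0.36 and 0.91. A sum lies at or above the level of each of its transcripts, and higher levels had less spread, so this is in part built in. Level moved with the spread too, which had a median of 0.84 for tested transcripts of 0.253 to 0.512 FPKM and 0.41 for those of 1.10 to 8.56 FPKM. Of the transcripts at the thresholds that lay at shared loci, the sum of the locus was at the thresholds in the same direction for 2 of 13 for 6 hpi against 0 h, 5 of 20 for 12 hpi against 0 h and 0 of 6 for 12 hpi against 6 hpi. Of the 414 tested loci of the intergenic lncRNAs, single transcripts included, the sums were higher for 20, 46 and 20 and lower for 5, 8 and 9 in these 3 comparisons. Of all 1619 tested loci, 5.19%, 9.94% and 4.88% were at the thresholds. These are shares of all loci, so they are not a measure for the loci with a transcript already at the thresholds.

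At some shared loci the sum itself was higher at the thresholds at both LPS times than at 0 h. For LINC246 with LINC248 it changed by 1.27 at 6 hpi and by 1.40 at 12 hpi. For LINC48 with LINC49 the changes were 2.09 and 2.25, and for LINC645 with LINC646 they were 2.30 and 2.59. The last sum was 0 in 0 h replicates 1 and 2. These sums were not refitted with libraries left out, and none reached an adjusted p under 0.05. The clearest case of calls that the sum did not follow was the locus of LINC145 and LINC144, which have the same start and end on chromosome 10. LINC145 had 0.921, 0.997 and 0.818 FPKM at 0 h, 1.31, 0.00681 and 0.0138 FPKM at 6 hpi, and 0.00939, 0.00201 and 0.0267 FPKM at 12 hpi. LINC144 had 0 in all 3 libraries of 0 h, 0, 0.877 and 1.32 FPKM at 6 hpi, and 1.05, 0.614 and 0.436 FPKM at 12 hpi. In each library 1 of the 2 transcripts carried the level of the locus and the other was at or near 0, and the switch lay between replicates of 6 hpi. Their sum was 0.921, 0.997 and 0.818 FPKM at 0 h, 1.31, 0.883 and 1.33 at 6 hpi, and 1.06, 0.616 and 0.463 at 12 hpi. LINC145 fell by 3.17 ± 1.01 on the log2 scale at 12 hpi against 0 h (SE, adjusted p = 0.230), LINC144 was higher at the thresholds in the same comparison but listed at 0 in all 0 h libraries, so no fold is given, and the sum of the locus changed by −0.38 (unadjusted p = 0.270). The call of LINC144 was lost without 12 hpi replicate 1 (unadjusted p = 0.0580), and without 0 h replicates 1 and 2 those of LINC145 (−3.03, unadjusted p = 0.168) and LINC144 (unadjusted p = 0.0806) were lost.

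LINC819 and LINC818, which start at the same base on chromosome 20 and end a few bases apart, showed such an exchange in most libraries. LINC819 had 1.43, 2.47 and 0.105 FPKM at 0 h, 0, 0 and 0.0854 FPKM at 6 hpi, and 0.106, 2.44 and 1.41 FPKM at 12 hpi. LINC818 had 1.65, 0 and 1.98 FPKM at 0 h, 2.87, 1.56 and 1.98 FPKM at 6 hpi, and 2.02, 0 and 0 FPKM at 12 hpi. LINC819 was near 0 in all 3 libraries of 6 hpi and in 1 library of each other time point, and in those libraries LINC818 was at 1.56 FPKM or more, while both were present in 0 h replicate 1. The log2 fold change of LINC819 was −2.92 ± 1.12 for 6 hpi against 0 h and 2.91 ± 1.12 for 12 hpi against 6 hpi. The first call was lost without 0 h replicate 1 (unadjusted p = 0.0874), 0 h replicate 2 (0.114), 6 hpi replicate 1 (0.0665) or 6 hpi replicate 2 (0.0648), and the change was −0.74 without 0 h replicates 1 and 2. The second call was lost without 6 hpi replicate 1 (0.0674), 6 hpi replicate 2 (0.0656), 12 hpi replicate 2 (0.114) or 12 hpi replicate 3 (0.0871). The 10 transcripts of the locus summed to between 8.58 and 12.6 FPKM in the 9 libraries, and the sum changed by −0.25 at 6 hpi against 0 h and by 0.18 at 12 hpi against 6 hpi, not at the thresholds.

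**Figure D5:**
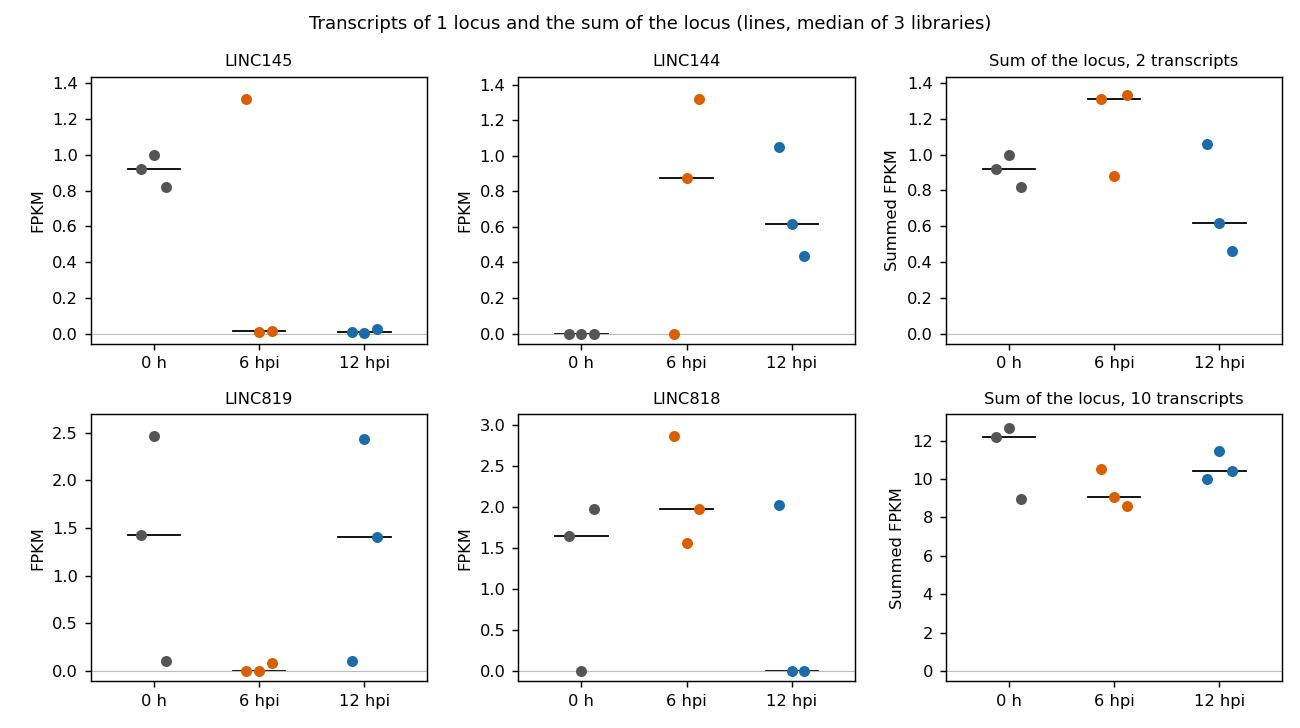
FPKM of LINC145 and LINC144 with the sum of their locus (top), and of LINC819 and LINC818 with the sum of the 10 transcripts of theirs (bottom), in the 9 libraries by time point. Points are libraries in the order of replicate number and lines are medians of 3 libraries. Where LINC145 or LINC819 was near 0 the other transcript of the pair was present, and the sums lay between 0.463 and 1.33 FPKM and between 8.58 and 12.6 FPKM.

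At the locus of LINC1289 on chromosome 5, transcripts moved in opposite directions by 6 hpi. LINC1279, which spans chr5:54939138-54966759, had 0.326, 0 and 1.36 FPKM at 0 h, 1.22, 1.73 and 1.80 FPKM at 6 hpi, and 1.22, 1.28 and 0.605 FPKM at 12 hpi. It was higher by 2.07 ± 0.81 at 6 hpi than at 0 h, while LINC1289 was lower, and the sum of the 4 listed transcripts changed by 0.10. The call of LINC1279 was lost without 0 h replicate 1 (unadjusted p = 0.0582), 0 h replicate 2 (0.0885), 6 hpi replicate 2 (0.0720) or 6 hpi replicate 3 (0.0752), and its change was 0.19 without both 0 h replicates 1 and 2. At 12 hpi the sum of this locus was 1.73, 1.82 and 1.57 FPKM, against 3.46, 2.89 and 3.37 FPKM at 0 h, a log2 fold change of −0.88 ± 0.21, which is short of the threshold.

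The locus on chromosome 19 with the most abundant shared transcripts (chr19:33209556-33211864) held 9 listed transcripts, 7 of them within the limit of 10 FPKM. LINC668 had 1.87, 3.81 and 7.59 FPKM at 0 h, 6.99, 8.93 and 9.60 FPKM at 6 hpi, and 6.05, 5.46 and 6.11 FPKM at 12 hpi. LINC673 had 2.98, 2.44 and 7.49 FPKM at 0 h, 6.85, 6.10 and 7.26 FPKM at 6 hpi, and 9.91, 8.37 and 6.32 FPKM at 12 hpi. For both, 0 h replicate 3 lay within the range of the LPS libraries, and the calls, 1.13 ± 0.42 for LINC668 at 6 hpi and 1.07 ± 0.38 for LINC673 at 12 hpi against 0 h, were lost without 0 h replicate 1 (0.64 for LINC668 and 0.89 for LINC673). The call of LINC668 was also lost without 0 h replicate 2 (unadjusted p = 0.0519), 6 hpi replicate 2 (0.0600) or 6 hpi replicate 3 (0.0681), and that of LINC673 without 0 h replicate 2 (0.0829), 12 hpi replicate 1 (0.0693) or 12 hpi replicate 2 (0.0512). Without 0 h replicates 1 and 2 the changes were 0.15 for LINC668 and 0.11 for LINC673. The sum of the 9 transcripts changed by 0.59 at 6 hpi and by 0.25 at 12 hpi against 0 h, not at the thresholds.

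At the locus of 7 transcripts on chromosome 24, LINC959 was higher by 1.5 ± 0.58 at 12 hpi than at 0 h, a call that was lost without 0 h replicate 1 (unadjusted p = 0.101), 0 h replicate 2 (0.109), 12 hpi replicate 2 (0.0925) or 12 hpi replicate 3 (0.0881) and was 0.12 without 0 h replicates 1 and 2, and the sum of the locus changed by 0.15. The 4 transcripts LINC34 to LINC37 and the 4 transcripts LINC90 to LINC93, at 2 loci on chromosome 1, reached the thresholds in none of the 3 comparisons. LINC36 shows how a single library can carry a mean there. It had 3.89, 2.61 and 4.20 FPKM at 0 h, 5.30, 4.16 and 4.75 FPKM at 6 hpi, and 0.00402, 3.35 and 3.27 FPKM at 12 hpi, so that 1 library of 12 hpi was near 0 and the other 2 were close to the other groups.

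Of the 591 transcripts, 12 were listed at 0 in all 3 libraries of 0 h, 9 in all of 6 hpi and 3 in all of 12 hpi, 20 in total. These counts are given for the intergenic lncRNAs only and are not read as a trait of them. Each of the 20 averaged 0.5 FPKM or more at another time point, so it could enter through the group where it was high. An exact 0 in FPKM may be a low level or an estimate that failed, so each library's value is given and no fold. LINC1368 (chr6:57203249-57203937) had 0 in all 3 libraries of 0 h, 0.789, 0.358 and 0.628 FPKM at 6 hpi, and 0.138, 0.224 and 0.228 FPKM at 12 hpi. It was above 0 in all 6 LPS libraries and in none of 0 h, and it was not tested because it was above 0.5 FPKM in 2 libraries only. LINC864 on chromosome 21 had 0 in all 3 libraries of 0 h, 0.159, 0 and 0 FPKM at 6 hpi, and 0.960, 0.393 and 0.458 FPKM at 12 hpi, and was thus present in all libraries of 12 hpi and 1 of 6 hpi. LINC1089 on chromosome 27 had 0.454, 0 and 0.337 FPKM at 0 h, 0 in all 3 libraries of 6 hpi, and 1.19, 0.354 and 0.469 FPKM at 12 hpi, and was thus at 0 in the libraries of 6 hpi and in 1 library of 0 h.

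In others of the 20, 1 or 2 libraries carried the signal of the transcript. LINC1555 on chromosome 9 had 2.21 FPKM in 12 hpi replicate 1 and LINC326 on chromosome 13 had 1.76 FPKM in 12 hpi replicate 2, and both were at 0 in the other 8 libraries. LINC852 on chromosome 21 had 2.14 and 1.75 FPKM in 0 h replicates 1 and 3 and was at 0 elsewhere. Each shares its locus with another listed transcript. The locus sum of LINC1555 was 0.0540, 1.15 and 1.475 FPKM at 0 h and 3.28, 2.35 and 1.93 FPKM at 12 hpi. That of LINC326 was 0.3455, 0.200 and 0.531 FPKM at 0 h and 0.790, 1.76 and 1.01 FPKM at 12 hpi. Both sums were higher at the thresholds for 12 hpi against 0 h, by 1.93 and 1.48. The sum for LINC852 changed by −0.88 in that comparison, not at the thresholds. LINC769 (chr20:2120884-2130035) had 0 in all 3 libraries of 0 h, 0, 2.73 and 10.3 FPKM at 6 hpi, and 0.608, 0.130 and 0.693 FPKM at 12 hpi. It was at the thresholds for 6 hpi against 0 h through 6 hpi replicates 2 and 3, and the call was lost without 0 h replicate 1 (unadjusted p = 0.0513), 2 (0.0510) or 3 (0.0515) and without 6 hpi replicate 2 (0.0860) or 3 (0.123), and without 0 h replicates 1 and 2 (0.133). In 6 hpi replicate 3, in which LINC769 was at 10.3 FPKM, LINC767 of the same locus was listed at 0, against 10.9 to 14.2 FPKM in the other 8 libraries.

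To place the transcripts near known genes, the lncRNAs of the table that carry the symbol of a host gene were used, since the table lists no protein-coding genes. Of the 591, 85 lay within 100 kb of such a lncRNA, the distance at which the study looked for cis targets, and 69 of these were tested. For 6 hpi against 0 h, 4 of the 69 were higher (5.80%, all tested lncRNAs 3.75%) and 1 was lower (1.45%, all 2.31%). For 12 hpi against 0 h, 7 were higher (10.1%, all 6.37%) and 2 lower (2.90%, all 3.23%), and for 12 hpi against 6 hpi 2 were higher (2.90%, all 3.49%) and 2 lower (2.90%, all 1.90%). Whether these shares differ from those of all tested lncRNAs was not tested. No member of the set lay within 100 kb of a host on 10 lists of 211 genes of TLR4 and NF-kB signalling, cytokines, interferon response, antigen presentation, related pathways and cell types. Only 3 genes of these lists are hosts in the table, so the lists say little here.

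LINC290, which rose at 12 hpi, overlaps the span of a lncRNA named for PLCB4, a phospholipase C that acts in signalling from G protein-coupled receptors. Whether LINC290 overlaps PLCB4 itself, against its intergenic name, was not tested, since the table lists no protein-coding genes. LINC518, highest at 6 hpi, lay 59.4 kb from one named for UBE2J2, a ubiquitin-conjugating enzyme of the endoplasmic reticulum. LINC1412, which had the same order of groups, lay 35.1 kb from one named for HSD11B1L. LINC1312 and LINC1313 lay 84.6 kb from one named for DNAL4, a dynein light chain. LINC1312 had 1.04, 1.03 and 1.21 FPKM at 0 h, 0.871, 0.647 and 0.759 FPKM at 6 hpi, and 0.375, 0.752 and 0.315 FPKM at 12 hpi, with a log2 fold change of −1.11 ± 0.33 for 12 hpi against 0 h, or −0.90 without 12 hpi replicate 3 and −0.999 without 12 hpi replicate 1, both short of the threshold, and −1.25 (unadjusted p = 0.0545) without 0 h replicates 1 and 2. LINC1346, chosen here after its values were seen, lay 26.2 kb from one named for the receptor GPR19 and had 1.87, 2.11 and 5.00 FPKM at 0 h, 4.28, 5.16 and 4.71 FPKM at 6 hpi, and 6.83, 5.34 and 7.29 FPKM at 12 hpi. It rose by 1.22 ± 0.35 at 12 hpi against 0 h (adjusted p = 0.204), and leaving out 0 h replicate 1 alone gave 0.96, or 0.36 together with replicate 2, both short of the threshold. The levels of the hosts themselves were not measured in the table.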

How the data were processed

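The 9 RNA libraries of MAC-T cells were put into 3 groups by their labelled time. Per the study's methods, ribosomal RNA was depleted, stranded libraries were mapped with Hisat2 to the bovine genome, transcripts were assembled, transcripts with several exons, no coding potential and FPKM above 0.5 were kept as lncRNAs, and StringTie quantified them. The submitters' notes name HISAT2, Cuffdiff 2.1.1, DESeq 1.10.1 and ARS-UCD1.2. The deposited values are FPKM per transcript, and the authors' further scaling between libraries, if any, is not named by these sources. FPKM keep no depth, so no counting interval is given. The circRNA tables deposited with the series were not used, since they hold no coordinates to set beside the loci.

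limma 3.58.1 (R 4.3.3) was fitted to log2(FPKM + 0.1) over all 9 libraries with time point as the only term and the mean-variance trend of eBayes, for 1948 lncRNAs above 0.5 FPKM in at least 3 libraries, with Benjamini-Hochberg adjustment in each comparison. The fit was tested on simulated data with known changes. The values were drawn independently from a normal distribution with each lncRNA's own mean and spread on the log2 scale. Such data lack the differences between 0 h libraries, so they check the fit and not the calls given here. Locus sums add the FPKM of all listed transcripts of a gene identifier. Alternatives were other pseudocounts, filters and scalings, each library left out, a replicate block and locus sums. The transcripts named are those with primers or in the DElncRNA lists of the study, up to 8 in each direction per comparison with the smallest p among those at the thresholds without overlap of groups, the 8 most abundant, and the largest or opposed loci. The members, gene lists and naming rule were chosen with earlier results of these data known. The rule took 97 transcripts, and those not described singly enter the counts of their comparison or locus.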

Additional observations from a re-analysis of the deposited data

Results flagged for a closer look

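In 4 of the 502 tested transcripts (0.797%, and 0.308% of all tested lncRNAs), LINC98, LINC518, LINC1412 and LINC1316, all 6 hpi libraries lay on one side of all 0 h libraries and all 12 hpi libraries on the other. The difference between the 2 changes was not tested on other values, since this order already sets 6 hpi apart from 12 hpi, and the fold changes between the LPS times are a description of these 4. LINC98 averaged 0.466 FPKM at 0 h, 0.292 FPKM at 6 hpi and 0.757 FPKM at 12 hpi, with a log2 fold change of 1.10 ± 0.37 (SE) for 12 hpi against 6 hpi, or 0.97 without 6 hpi replicate 2 and 0.83 without 12 hpi replicate 1. LINC518 averaged 0.950 FPKM at 0 h, 1.69 FPKM at 6 hpi and 0.793 FPKM at 12 hpi. LINC1412 averaged 0.766 FPKM at 0 h, 1.19 FPKM at 6 hpi and 0.446 FPKM at 12 hpi. LINC1316 had 0.530, 0.510 and 0.496 FPKM at 0 h, 0.383, 0.440 and 0.402 FPKM at 6 hpi, and 2.96, 0.599 and 0.534 FPKM at 12 hpi, where 1 library carried the mean.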

How the results depend on the processing

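The counts at the thresholds were 34 and 63 for 6 and 12 hpi, each set against 0 h, and 30 between the LPS times. In that order they became 13, 22 and 6 with a pseudocount of 0.5, 4, 2 and 3 with a pseudocount of 1, and 5, 10 and 3 of 131 transcripts with a filter of above 0.5 FPKM in every library. With 0 h replicates 1 and 2 left out together they were 12, 28 and 32. With single libraries left out they ranged from 20 to 51, from 43 to 92 and from 24 to 33. They stayed within 1.5 times with a pseudocount of 0.05, no filter, both scalings, no trend, only the 6 libraries compared and locus sums. The counts for locus sums are over loci, and 397 of the 478 loci had a single listed transcript. No pairing of the libraries by replicate number was seen. Correlations of their deviations lay between −0.0754 and 0.0728 for the same number, and between −0.0534 and 0.0856 for different numbers. A fit with the replicate block gave 32, 60 and 28.

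Adjusted p under 0.05 were reached only for 12 hpi against 0 h by LINC1289 with a pseudocount of 1 and by LINC547 and LINC991 with the filter on every library, and by 3 transcripts at 6 hpi and 8 at 12 hpi against 0 h without 0 h replicate 3. Of 68 calls of named transcripts, 60 were kept with centring, 57 with quantile normalization, 23 with a pseudocount of 0.5 and 6 with a pseudocount of 1. For 26 of these calls the locus sum was set beside the transcript, and 2 were kept. With locus sums 3 changed direction, LINC144 to −0.38 and LINC813 to −0.0688 at 12 hpi and LINC1289 to 0.10 at 6 hpi against 0 h. These sums hold other transcripts by construction, and the causes of the other moves were not tested. Members near a host were 22 within 10 kb, 85 within 100 kb and 276 within the widest window tried. The overlap of loci with circRNAs was not run.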
